A study of Mus musculus with 6 samples.

Results

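The interleukin-17 (IL-17) ligands and receptors were followed in Wnt1-YL mammary tumor cells after knockdown of Sca-1. The 8 genes, Il17a, Il17b, Il17d, Il17ra, Il17rb, Il17rc, Il17rd and Il17re, were found by symbol in the annotation of the array. They have 14 of the 45037 probe sets tested and are 8 of the 18193 genes that had at least 1 probe set assigned to them alone. The family was chosen by values already seen on these arrays, among them the near loss of Il17b on 1 control array, so its values are a description and not a test of a prior expectation. Wnt1-YL was established from an invasive mammary carcinoma that arose in an FVB/n mouse with the MMTV-Wnt1 transgene, in which the MMTV promoter drives Wnt1 in mammary epithelium. Knockdown cells carried a lentiviral shRNA against Sca-1 (shSca-1, 3 arrays), and the controls carried an shRNA against luciferase (shLuc, 3 arrays). All cells shared the Wnt1 background, the vector, drug selection and a medium with insulin and EGF. The replicates are called biological, but nothing states whether each was a separate culture, so p-values measure the spread between these samples, which may be technical.

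IL-17 cytokines are secreted dimers that signal through pairs of single-pass receptors. IL-17A acts through IL-17RA with IL-17RC, IL-17B binds IL-17RB, and IL-17C acts through IL-17RA with IL-17RE on epithelial cells. The receptors recruit the adaptor Act1 and TRAF proteins, which leads to NF-kB activity, stabilization of short-lived mRNAs and release of neutrophil chemokines. IL-17RD, also called Sef, is known as an inhibitor of FGF signaling as well. IL-17A comes mainly from lymphocytes, while epithelial cells carry the receptors.

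Values are intensities, the arrays' model-based signals on a linear scale, each from a probe set, that is several oligonucleotides designed for one transcript. Array medians lay between 37.3 and 40.7. Ly6a, which encodes Sca-1, had an intensity of 285, 314 and 306 on the shSca-1 arrays, against 7646, 7362 and 2843 on shLuc replicates 1, 2 and 3. The third shLuc array stood apart. Across probe sets, which are not independent, Pearson's r with its closest array was 0.924, and the others reached 0.957 to 0.963. Summed luminal markers (Krt8, Krt18, Krt19, Epcam and Elf5) were 236 to 271 on the shSca-1 arrays, 204 to 245 on shLuc replicates 1 and 2, and 9015 on shLuc replicate 3, where 5 of 5 reached 64. Elsewhere 2 of 5 did, Epcam on every array and Krt18 only on shSca-1 replicate 1, at 65.2. Summed basal markers (Krt5, Krt14 and Trp63) were 22211 to 26178 on the shSca-1 arrays, 22618 to 23025 on shLuc replicates 1 and 2, and 11859 on shLuc replicate 3. The other 5 arrays thus had strong basal and weak luminal markers, and each result on the family is given with and without shLuc replicate 3.

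Il17b, which encodes an epithelial ligand of IL-17RB, was lower in shSca-1 cells than on 2 of the 3 shLuc arrays and almost lost on the third. Its intensity was 3817, 4026 and 4526 on the shSca-1 arrays, against 5825, 5666 and 41.3 on shLuc replicates 1, 2 and 3. The shSca-1 arrays were all below the first and second shLuc arrays and all far above the third. Over the 6 arrays shSca-1 cells had a log2 fold change of 1.89 relative to shLuc cells, with a standard error (SE) of 1.79 and limma's adjusted p = 0.79 over all probe sets. Without shLuc replicate 3 it turned to -0.48 (SE 0.08, limma's adjusted p = 0.027). Leaving out this 1 array thus reversed the sign, and the remaining difference was smaller than the 1.5-fold that the study required. On shLuc replicate 3 the signal was close to that array's median of 40.7. With 64 taken as the lowest readable intensity, it was at least 59.6-fold lower than on any other array. Of 5982 probe sets with at least 500 on each of those arrays, 25 were over 10 times lower on it, Il17b among them.

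**Figure D1:**
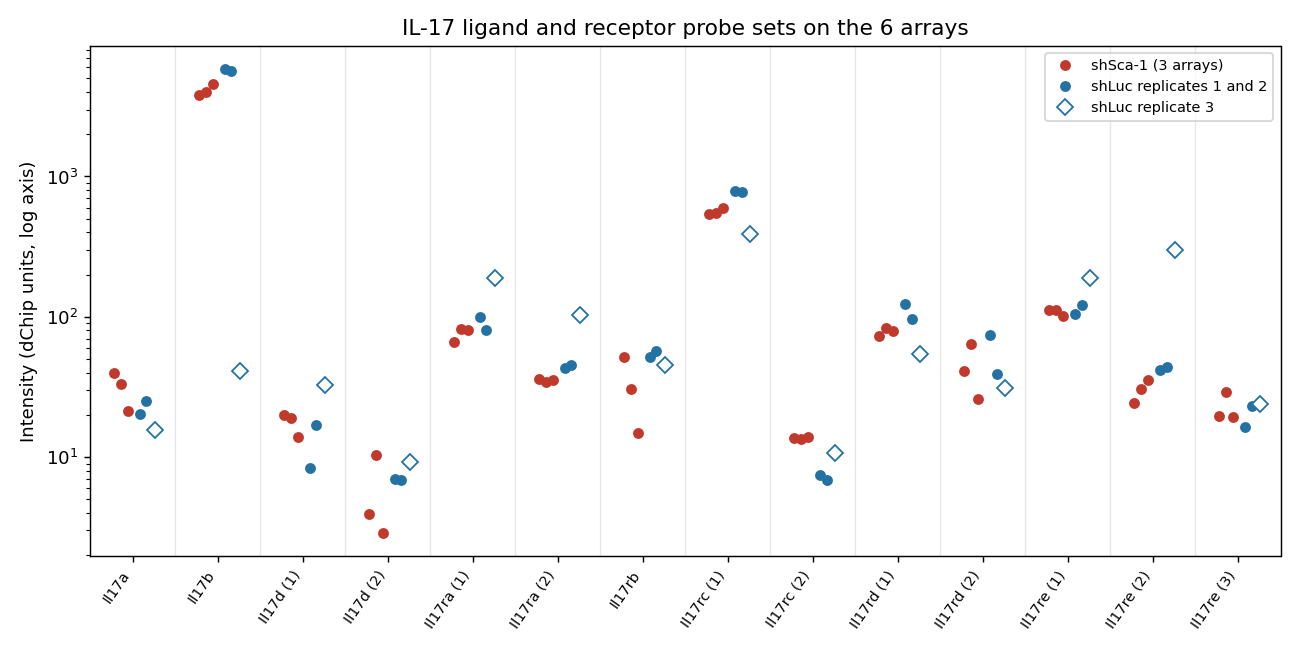
Intensity of the 14 IL-17 ligand and receptor probe sets on the 6 arrays, on a log axis. Red points are the 3 shSca-1 arrays, blue points shLuc replicates 1 and 2, and open diamonds shLuc replicate 3, and numbers in parentheses order a gene's probe sets by mean signal. Il17b lies at 41.3 on shLuc replicate 3 and between 3817 and 5825 on the others, and the second Il17re probe set at 297 against 24.4 to 44.1.

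Il17b was followed most closely by 5 genes over the 6 arrays, out of 5100 others that reached an intensity of 500. They were Zfp52, a zinc finger gene (Pearson's r of log2 values 0.9999), Fam111a, which encodes a protease (0.9999), Efemp1, a matrix protein gene of the fibulin family (0.9993), Bst1, which encodes the ADP-ribosyl cyclase CD157 (0.9991), and Prnp, the prion protein gene (0.9991). These values rest largely on shLuc replicate 3, and r does not measure the size of a change. Efemp1 was 2359, 2142 and 2602 on the shSca-1 arrays, against 2906, 2794 and 71.5 on shLuc replicates 1, 2 and 3. Bst1 was 2414, 2719 and 3115 on the shSca-1 arrays, against 3281, 3228 and 167 on the shLuc arrays. Prnp was only 2.33-fold lower on shLuc replicate 3 than on any other array, at 1590 against 3699 to 4012. Over the 5 other arrays r was 0.88 to 0.99. Those arrays were part of the choice of the genes, so this range is no separate evidence of likeness. Krt5, a basal keratin gene, was also lowest on shLuc replicate 3, at 3141 against 9576 to 11431 elsewhere. Its part in the loss of Il17b was not tested.

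**Figure D2:**
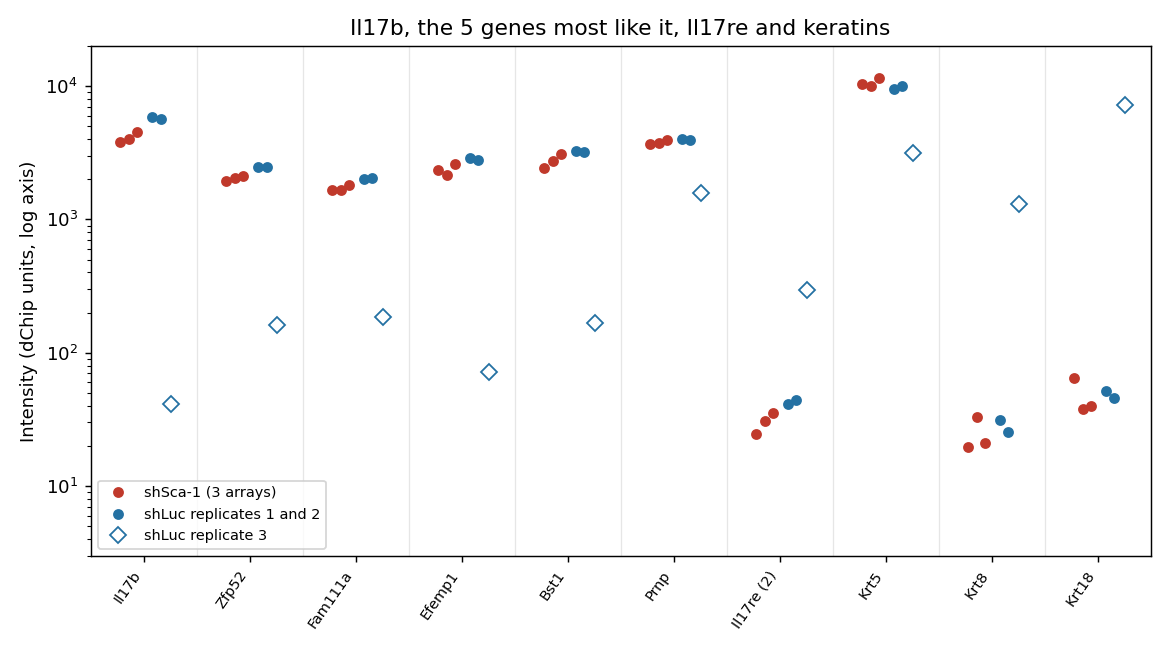
Intensity of Il17b, the 5 genes with the highest r to it, the second Il17re probe set and 3 keratin genes. The axis is logarithmic, and values are shown array by array. Symbols are red for shSca-1, blue for shLuc replicates 1 and 2 and open for shLuc replicate 3. Krt5 is at 3141 on that array and Krt18 at 7175, against at most 65.2 for Krt18 on the others.

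Il17a and Il17d, the other ligand genes measured, gave weak signals. Il17a encodes the cytokine of Th17 cells, and its intensity was 39.6, 33.0 and 21.2 on the shSca-1 arrays, against 20.4, 25.2 and 15.7 on the shLuc arrays. The groups overlapped, with a log2 fold change of 0.59 (SE 0.35, limma's adjusted p = 0.66) and of 0.41 without shLuc replicate 3 (SE 0.37, adjusted p again 0.66 by limma). Markers of T cells were weak too. Of 5 measured of 7 listed, 4 stayed under 64 on all 6 arrays, with Cd3e between 1.0 and 4.7. Their summed intensity was 93.9 to 129 on the shSca-1 arrays, 77.4 to 100 on shLuc replicates 1 and 2, and 106 on shLuc replicate 3. For Il17d, which encodes another secreted family member, a probe set that may cross-hybridize (its name ends in _x_at) had 19.9, 19.1 and 14 on the shSca-1 arrays, against 8.3, 17.0 and 32.6 on the shLuc arrays. The other stayed between 2.9 and 10.4, and the groups overlapped on both. Their log2 fold changes were 0.07 and -0.64 (limma's adjusted p = 0.98 and 0.78), and 0.55 and -0.50 without shLuc replicate 3 (limma's adjusted p = 0.64 and 0.80). Il25, a ligand gene outside the 8, was at or below 5.1 on every array, and Il17c and Il17f had no probe set of their own.

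Il17rc was the receptor gene that differed most clearly in a fit without shLuc replicate 3. It encodes the partner of IL-17RA in the receptor for IL-17A. Its brighter probe set had 543, 553 and 596 on the shSca-1 arrays, against 783, 771 and 388 on shLuc replicates 1, 2 and 3. As for Il17b, the shSca-1 arrays lay between the third shLuc array and the other two. The log2 fold change was -0.13 on 6 arrays (SE 0.27, limma's adjusted p = 0.91) and -0.46 without shLuc replicate 3 (SE 0.08, limma's adjusted p = 0.031). It was 0.04 when only shLuc replicate 1 was left out and 0.03 when only shLuc replicate 2 was. The dimmer probe set of the gene went the other way, with 13.6, 13.4 and 13.8 on the shSca-1 arrays, against 7.5, 6.9 and 10.7 on the shLuc arrays. These are low intensities, and the log2 fold change was 0.72 (SE 0.36, limma's adjusted p = 0.60), and 0.91 without shLuc replicate 3 (SE 0.44, limma's adjusted p = 0.37).

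Il17re, which encodes the receptor for IL-17C, and Il17ra, which encodes the shared receptor chain, were highest on shLuc replicate 3 by 4 of their 5 probe sets. The Il17re probe set with the widest range had 24.4, 30.7 and 35.4 on the shSca-1 arrays, against 41.6, 44.1 and 297 on shLuc replicates 1, 2 and 3. All shSca-1 values were below all shLuc values, with a log2 fold change of -1.46 (SE 0.73, limma's adjusted p = 0.61), and of -0.52 without shLuc replicate 3 (limma's adjusted p = 0.43). Its name ends in _s_at, which marks a probe set that can match more than 1 transcript. The brightest Il17re probe set had 111, 112 and 102 on the shSca-1 arrays, against 104, 122 and 188 on the shLuc arrays. It overlapped between the groups, and the dimmest one, between 16.3 and 29.3 on all arrays, was not highest on shLuc replicate 3. Their log2 fold changes were -0.31 and 0.10 (limma's adjusted p = 0.74 and 0.95), and -0.06 and 0.21 without shLuc replicate 3 (limma's adjusted p = 0.89 and 0.86).

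For Il17ra, the brighter probe set had 65.6, 82.4 and 80.2 on the shSca-1 arrays, against 99.6, 80.0 and 188 on shLuc replicates 1, 2 and 3. The dimmer one had 35.8, 34.4 and 35.7 on the shSca-1 arrays, against 43.1, 45.3 and 103 on the shLuc arrays. Only the dimmer one separated the groups, and it was under 64 on every array but shLuc replicate 3. The log2 fold changes of the brighter and dimmer one were -0.60 and -0.73 (limma's adjusted p = 0.64 and 0.60). Without shLuc replicate 3 they were -0.24 and -0.32 (limma's adjusted p = 0.63 and 0.58). Both differences were thus smaller once the array was left out. With intensities under 64 set to 64, the dimmer one had -0.23 on 6 arrays (limma's adjusted p = 0.46).

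In the RefSeq annotation of GRCm38.p6, Il17re and Il17rc lie on chromosome 6 with 1 gene model, Gm52872, listed between them. Both are read from the forward strand, and on shLuc replicate 3 the 2 brighter Il17re probe sets were highest and the brighter Il17rc probe set was lowest. The dimmest probe set of each gene did not share this, with Il17re inside the range of the other arrays and Il17rc at 10.7, against 6.9 to 13.8. The 250 bases before the start of each gene in the RefSeq promoter table are shown for this reason, chr6:113458521-113458770 for Il17re and chr6:113471205-113471454 for Il17rc. Capitals mark AGGAAG, the core of sites for ETS factors such as PEA3 (Etv4), on either strand.

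Il17re: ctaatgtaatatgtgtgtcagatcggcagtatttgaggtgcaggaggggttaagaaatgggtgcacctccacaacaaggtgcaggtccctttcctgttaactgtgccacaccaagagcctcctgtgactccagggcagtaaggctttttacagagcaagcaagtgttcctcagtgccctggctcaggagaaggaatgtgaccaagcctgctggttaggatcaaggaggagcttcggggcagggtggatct

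Il17rc: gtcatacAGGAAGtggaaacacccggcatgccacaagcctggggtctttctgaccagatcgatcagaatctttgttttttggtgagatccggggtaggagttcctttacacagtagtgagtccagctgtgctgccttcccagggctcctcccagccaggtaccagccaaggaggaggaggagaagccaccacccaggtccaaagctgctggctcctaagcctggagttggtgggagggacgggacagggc

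The Il17rc window held 1 such match and the Il17re window held none. The letters AGGAAG, on either strand, occurred in 29.5% of all 32851 windows of 250 bases, TATAAA in 12.4% and GGGCGG in 32.7%, and neither TATAAA nor GGGCGG occurred in the 2 windows shown. A match is only a description of the letters. The table held windows for 6 of the 8 genes, and Il17a had TATAAA in its window.

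Il17rb and Il17rd passed no adjusted test between the groups, with or without shLuc replicate 3. Il17rb, which encodes the receptor for IL-17B, had 52.1, 30.8 and 14.9 on the shSca-1 arrays, against 51.3, 57.3 and 45.6 on the shLuc arrays. All 6 values were under 64, and with intensities under 64 set to 64 the probe set was constant. The spread among the shSca-1 arrays was larger than among the shLuc arrays, the groups overlapped, and the log2 fold change was -0.83 (SE 0.45, limma's adjusted p = 0.64), and -0.91 without shLuc replicate 3 (SE 0.49, limma's adjusted p = 0.42). Leaving out shSca-1 replicate 1 gave -1.26 (unadjusted p = 0.019 in limma), and leaving out shSca-1 replicate 3 gave -0.35. Il17rd, the gene of the FGF signaling inhibitor, had 73.1, 83.5 and 79.4 on the shSca-1 arrays by its brighter probe set, against 123, 96.6 and 54.2 on shLuc replicates 1, 2 and 3. Its dimmer probe set had 40.8, 64 and 25.8 on the shSca-1 arrays, against 74.6, 38.9 and 31.3 on the shLuc arrays. Both overlapped, with log2 fold changes of -0.14 (SEs of 0.31 and 0.45, limma's adjusted p = 0.92 and 0.94). Without shLuc replicate 3 the brighter one had -0.47 (SE 0.18, limma's adjusted p = 0.24), and its groups no longer overlapped. The dimmer one had -0.41 (SE 0.43, limma's adjusted p = 0.72).

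**Figure D3:**
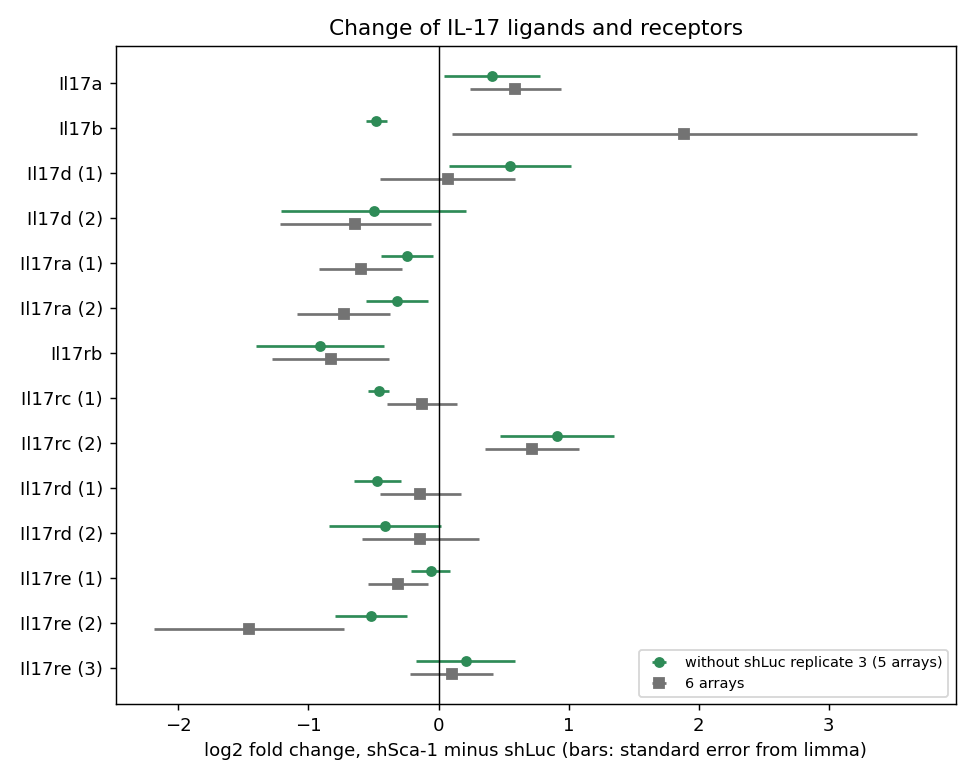
Difference of mean log2 intensity between shSca-1 and shLuc arrays (log2 fold change) for the 14 probe sets. Points are estimates without shLuc replicate 3 (green circles) and on 6 arrays (grey squares), and bars are standard errors from limma. Il17b moves to -0.48 without that array, against 1.89 with it, while Il17rc (1) lies at -0.46 and -0.13.

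Counted together, 0 of the 14 probe sets passed an unadjusted p under 0.01 with a fold change over 1.5, the thresholds of the study, applied to limma. Of all probe sets 1.83% did. At an adjusted p under 0.05, 0 of the 14 and 0.0% of all passed, and at an unadjusted p under 0.05, 0 of the 14 did in limma, against 9.26% of all, and 1 by the methods' t-test, against 8.97%. Without shLuc replicate 3, 2 of the 14, Il17b and Il17rc (1), were lower at an adjusted p under 0.05, against 2.76% of all probe sets in either direction. At the study's thresholds 0 did there, against 3.56%. Those 2 calls depended on the setting, as did the count over all probe sets, while the log2 fold changes stayed between -0.43 and -0.55 for Il17b and between -0.40 and -0.50 for Il17rc (1). Neither passed with no variance trend (limma's adjusted p = 0.32 and 0.30), by the methods' t-test (adjusted p = 0.27 and 0.19), or with intensities under 64 set to 64 (limma's adjusted p = 0.27 and 0.16). Nor did they pass when shLuc replicate 1 or 2 or shSca-1 replicate 1 or 2 was left out as well (adjusted p of 0.071 to 0.40 from limma). In the fits in which they were lost, 1 to 387 of all probe sets passed, against 1244 with the 5 arrays. Both passed without shSca-1 replicate 3 (limma's adjusted p = 0.00061 and 0.0046).

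The groups did not overlap in 3 of the 14 probe sets on 6 arrays, against 16.5% of all, and in 6 of the 14 without shLuc replicate 3, against 33.6% of all. The median log2 fold change of the 14 was -0.14 on 6 arrays, against -0.034 over all probe sets, and -0.36 without shLuc replicate 3, against -0.039.

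The clearest differences within the family were between shLuc replicate 3 and the other arrays. On it, 5 of the 14 probe sets were over 1.5-fold above every other array, namely both of Il17ra, 2 of Il17re and 1 of Il17d. Of all probe sets, 6.89% were. The ratios to the highest other array ran from 1.54 to 6.75. The next probe set below the threshold had 0.89 and was the other one of Il17d. The Il17d probe set above the threshold may cross-hybridize. It had 32.6 on shLuc replicate 3, under 64 and under that array's median of 40.7. In the other direction Il17b was the 1 probe set over 1.5-fold below every other array, against 7.13% of all, and Il17rc (1) at 1.40-fold lay just under the threshold. On the remaining 5 arrays, 0 of the 14 were above and at most 1 was below, where 0.91% to 1.98% of all probe sets were above and 2.78% to 3.79% below. On shLuc replicate 3, Krt8 and Krt18, luminal keratin genes, were 1303 and 7175, against at most 33.1 and 65.2 elsewhere. Their part in the Il17ra and Il17re values was not tested.

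Of the genes listed for the route downstream of the receptors, 3 passed the study's thresholds, all of them feedback genes. The list held 26 adaptors, kinases, transcription and mRNA factors and feedback genes, 23 of which had a probe set of their own. On 6 arrays, 2 were higher and 1 was lower at the study's thresholds, against 2.04% of all 18193 genes in either direction. Their median log2 fold change was -0.01, against -0.04 for all genes. Traf3ip2, which encodes Act1 and was named after its values were seen, had 293, 337 and 446 on the shSca-1 arrays, against 424, 419 and 299 on the shLuc arrays. The groups overlapped, with a log2 fold change of -0.09 (SE 0.21, limma's adjusted p = 0.92). Tab2 and Tbk1, genes of a TAK1 binding protein and of a kinase related to the IKKs, had -0.05 and -0.01 (SE 0.09 and 0.10). Ikbkb, which encodes the kinase IKK-beta, had 372, 398 and 454 on the shSca-1 arrays, against 517, 562 and 707 on the shLuc arrays. The groups did not overlap, and the log2 fold change of -0.54 was under the 1.5-fold threshold (SE 0.15, limma's adjusted p = 0.35).

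The genes past the thresholds were all in the feedback group. Usp25, which encodes a deubiquitinase of TRAF proteins, was lower, with 136, 154 and 138 on the shSca-1 arrays, against 270, 233 and 274 on the shLuc arrays. Its log2 fold change was -0.86 (SE 0.14, limma's adjusted p = 0.13) and -0.82 without shLuc replicate 3 (limma's adjusted p = 0.023). Tnfaip3, which encodes the NF-kB inhibitor A20, had 193, 196 and 289 on the shSca-1 arrays, against 131, 117 and 127 on the shLuc arrays. Nfkbia, which encodes the inhibitor IkB-alpha, had 3221, 3432 and 4846 on the shSca-1 arrays, against 2640, 2444 and 2015 on the shLuc arrays. Both were higher on every shSca-1 array than on any shLuc array. Their log2 fold changes were 0.83 and 0.68 (limma's adjusted p = 0.27 and 0.33), and 0.84 and 0.57 without shLuc replicate 3, where Nfkbia was under the 1.5-fold threshold (limma's adjusted p = 0.069 and 0.12). Traf5, an adaptor gene, had 103, 120 and 128 on the shSca-1 arrays, against 207, 217 and 70.4 on shLuc replicates 1, 2 and 3, and passed an adjusted p under 0.05 only without the third (log2 fold change -0.86, limma's adjusted p = 0.026). In that fit 0 of the 23 were higher and 2 were lower, against 3.89% of all genes in either direction. Zc3h12a, which encodes the mRNA-degrading enzyme Regnase-1, did not pass, with a log2 fold change of 0.47 on 6 arrays (SE 0.48, limma's adjusted p = 0.80) and of -0.03 without shLuc replicate 3. By the methods' t-test 1 of the 3 on 6 arrays, Usp25, stayed past the thresholds, against 1.31% of all genes. In limma 1 of the 23 passed when shLuc replicate 2 was left out, against 1.81% of all genes.

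Among factors that act on DNA or mRNA, none of 7 passed. Cebpb, a transcription factor gene for IL-17 responses, had a log2 fold change of -0.34 (SE 0.15, limma's adjusted p = 0.54). Elavl1 and Srsf1, genes of RNA-binding proteins that act on these mRNAs, had 0.07 and 0.14 (SE 0.10 each). Nfkbiz and Cebpd, named after their values were seen, went apart on shLuc replicate 3. Nfkbiz, a co-activator gene, had 776, 859 and 1456 on the shSca-1 arrays, against 837, 834 and 315 on the shLuc arrays. Cebpd, a transcription factor gene, had 467, 530 and 623 on the shSca-1 arrays, against 741, 678 and 2135 on the shLuc arrays. Nfkbiz was thus lowest and Cebpd highest on shLuc replicate 3.

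Genes known as targets of IL-17 in epithelial cells were set beside the family. Of 21 measured, 9 were higher in shSca-1 cells at the study's thresholds and 0 were lower, against 0.528% and 1.52% of all genes (0.759% and 1.18% after quantile normalization). Their median log2 fold change was 0.67, against -0.04 for all genes. They were Mmp9, S100a8, Saa3, Ccl2, Il6, Cxcl5, Cxcl1, Ccl7 and Cxcl3, with log2 fold changes of 1.75 to 4.61. In 5 of the 9 (Cxcl3, Ccl7, S100a8, Saa3 and Mmp9) every shLuc value was under 64, and with intensities under 64 set to 64 the range was 0.95 to 3.03. Several of them were known to be higher when the list was written, so the count is no independent evidence, and other signals, such as TNF and IL-1, share these targets. Cxcl1, a neutrophil chemokine gene, had 1180, 1335 and 3203 on the shSca-1 arrays, against 608, 583 and 262 on the shLuc arrays (log2 fold change 1.92, SE 0.46, limma's adjusted p = 0.29). By the methods' t-test 6 were higher, against 0.33% of all genes. Without shLuc replicate 3, 8 were higher and 0 lower at an adjusted p under 0.05, where 1.17% of all genes were higher, with Lcn2 among them but neither Cxcl1 nor Cxcl3 (limma's adjusted p = 0.081 and 0.17).

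Lcn2, which encodes the iron-siderophore binding protein lipocalin-2, had 591, 540 and 454 on the shSca-1 arrays, against 316, 334 and 1641 on shLuc replicates 1, 2 and 3. Its log2 fold change was -0.09 on 6 arrays (limma's adjusted p = 0.98) and 0.69 without shLuc replicate 3 (limma's adjusted p = 0.031). The remaining targets did not pass. Ptgs2, the cyclooxygenase-2 gene, had a log2 fold change of 0.17 (SE 0.31, limma's adjusted p = 0.90) and of -0.22 without shLuc replicate 3. In all, 7 of the 21, Cxcl2 and S100a9 among them, were under 64 on all 6 arrays. Mmp3, a stromelysin gene, had 438, 474 and 2229 on the shSca-1 arrays, against 1031, 982 and 31.1 on the shLuc arrays. Mmp13, a collagenase gene, had 64.8, 80.4 and 1096 on the shSca-1 arrays, against 455, 393 and 9.9 on the shLuc arrays. The groups overlapped in both. Of 14 targets that reached 64, 8 were over 1.5-fold higher on shSca-1 replicate 3 than on both other shSca-1 arrays, against 3.63% of 11010 genes. The count of 9 was between 8 and 9 when 1 array was left out, and 7 with intensities under 64 set to 64. Summed macrophage markers (5 genes) were 349 to 500 on the shSca-1 arrays, 573 to 586 on shLuc replicates 1 and 2, and 317 on shLuc replicate 3. This sum followed Cd68, with 53.9, 77.6 and 212 on the shSca-1 arrays, against 311, 298 and 32.9 on the shLuc arrays. Ptprc went the other way, with 14.1, 11.8 and 20.5 on the shSca-1 arrays, against 8.4, 4.0 and 11.6 on the shLuc arrays. Summed fibroblast markers (3 genes) were 164 to 334 on the shSca-1 arrays, 84.1 to 117 on shLuc replicates 1 and 2, and 205 on shLuc replicate 3. The fibroblast sum followed Pdgfra, with 96.2, 108 and 292 on the shSca-1 arrays, against 60.8, 48.6 and 147 on the shLuc arrays. Col1a1 and Col3a1 stayed under 64 on all arrays and went opposite ways, with log2 fold changes of 1.0 and -0.23. The part of the macrophage and fibroblast markers in the values of the targets was not tested.

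**Figure D4:**
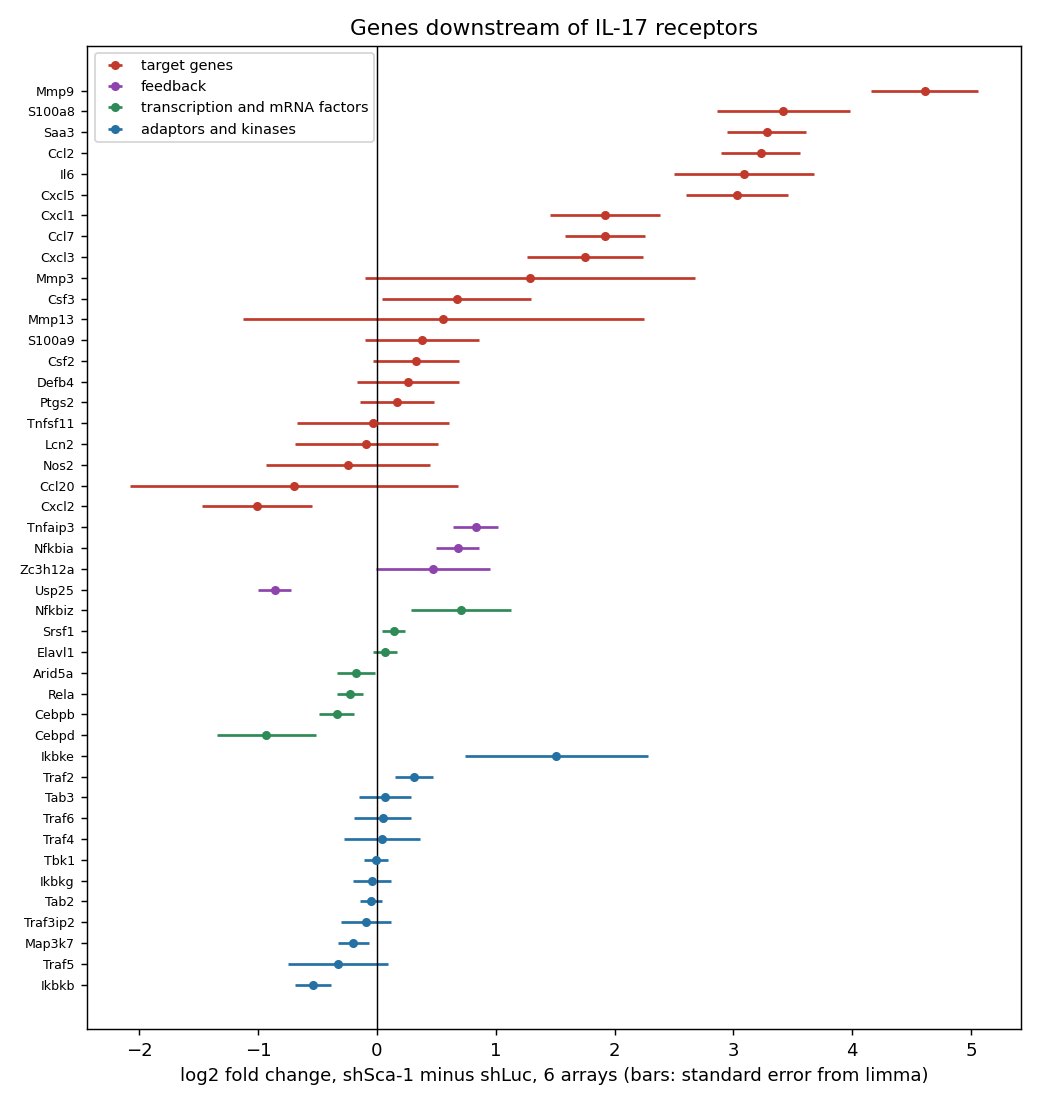
Log2 fold change between shSca-1 and shLuc arrays for 21 target genes (red), 4 feedback genes (purple), 7 transcription and mRNA factors (green) and 12 adaptors and kinases (blue) on 6 arrays. Points are genes and bars standard errors from limma. The 9 targets past the thresholds lie between 1.75 and 4.61, and the adaptors and kinases have a median of -0.02.

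Because IL-17RD also restrains FGF signaling to ERK, genes of that route were set beside it. They were Spry1, Spry2, Spry4, Spred1, Spred2, Dusp6, Etv4 and Etv5. Of 8 measured, 1 was lower at the study's thresholds and 0 were higher, against 1.52% and 0.528% of all genes, and their median log2 fold change was -0.36, against -0.04. Spry2, a Sprouty inhibitor gene, had 523, 441 and 507 on the shSca-1 arrays, against 830, 739 and 785 on the shLuc arrays. The groups did not overlap, with a log2 fold change of -0.68 (SE 0.11, limma's adjusted p = 0.15) and the same value without shLuc replicate 3 (limma's adjusted p = 0.021). Dusp6, an ERK phosphatase gene, had -0.27, Spred2 0.06 and Spred1 -0.34 (limma's adjusted p = 0.69, 0.96 and 0.40). Without shLuc replicate 3 Spred2 had -0.23. Spry1, Etv5 and Etv4, named after their values were seen, were highest on shLuc replicate 3, at 461, 1032 and 215. They had -0.84, -0.68 and -0.39 on 6 arrays (limma's adjusted p = 0.62, 0.49 and 0.73). Leaving out that array gave -0.41, -0.46 and -0.07 (limma's adjusted p = 0.58, 0.32 and 0.90). Spry4, also named after its values were seen, stayed under 64 on all 6 arrays, with 0.13. The part of Il17rd, or of the EGF in the medium, in the values of these genes was not tested.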

How the data were processed

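RNA from 3 shSca-1 and 3 shLuc samples of Wnt1-YL cells was hybridized to 1 Affymetrix mouse genome array each. The deposited values are linear intensities that the authors computed with dChip (PM-MM model, invariant set normalization). The dChip version and genome build are not given in the sources used here. After removal of 64 control probe sets and a floor at an intensity of 1, values were put on the log2 scale. Of 45037 probe sets, 34945 had 1 symbol in the platform annotation, 932 several and 9160 none. The probe set of Ly6a was named through the paper's supplementary table. The groups were compared across all probe sets with limma 3.58.1 (R 4.3.3, trended variance, no block), with Benjamini-Hochberg adjustment, and the code was tested on simulated data. Genes other than members were represented by their brightest own probe set. Members and lists were chosen with earlier results of these data known. Named list genes were those past a threshold, up to 3 others with the highest mean, and some named after their values were seen. An exact permutation test of 3 against 3 arrays cannot go below 0.1. The number of arrays limits the precision. Alternatives were normalization, floors, a filter, the test, a replicate block and leaving out arrays. Combinations with shLuc replicate 3 left out were added after seeing the data.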

Additional observations from a re-analysis of the deposited data

How the results depend on the processing

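The 14 IL-17 family probe sets gave 0 calls at the study's thresholds under the alternatives run, with 10 of them tested after the filter and 8 not constant with a floor of 64. The count over all probe sets, 824, was 329 with intensities under 64 set to 64 and 507 to 1605 when 1 array was left out (1605 with shLuc replicate 3 out, 507 with shSca-1 replicate 1 out and 534 with its replicate 2 out). At an adjusted p under 0.05 the count of 0 became 5 after quantile normalization, 19 after centring, 24 and 7 with floors of 16 and 64, 32 after the filter, 4 by the methods' t-test and 0 to 1244 when 1 array was left out (1244 without shLuc replicate 3). The 3 signal genes were 1 with a floor of 64, by the t-test and when a gene's probe sets were averaged, and 1 to 4 when 1 array was left out (1 without shLuc replicate 2). The 2 family calls without shLuc replicate 3 stayed 2 with quantile normalization, centring and the replicate block, and were 0 with no variance trend, the t-test or a floor of 64, and 0 to 2 when another array was left out. Leaving out shLuc replicate 1 or 2 as well leaves 1 shLuc array, assumed to vary like the others.

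Of 184 alternative values for the 14 log2 fold changes, 11 changed sign, 10 of them in leave-one-out fits. These spanned -0.48 to 3.09 for Il17b, -0.43 to 0.55 for the brighter Il17d probe set, -0.46 to 0.04 for the brighter Il17rc, -0.47 to 0.12 and -0.47 to 0.22 for the brighter and dimmer Il17rd, and -0.10 to 0.21 for the dimmest Il17re. The brighter Il17d had -0.18 with a floor of 16. Probe sets at the floor on all 6 arrays have no value there. Same-numbered arrays did not deviate together (r of -0.043, -0.02 and -0.029), so the numbers were not treated as pairs. With the replicate block, 587 probe sets passed the study's thresholds on 6 arrays, 0 of them in the family.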
